A study of Homo sapiens with 4 samples.

Results

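The genes described here encode respiratory complexes II, III, IV and V of the mitochondrial inner membrane, cytochrome c, and the COX-named assembly factors of complex IV. They were chosen by gene symbol alone (SDHA to SDHD, CYC1, CYCS, and symbols that begin with UQCR, with COX and a digit, or with ATP5F, ATP5M or ATP5P), among array probe sets that the platform annotation assigns to 1 gene. The choice gave 60 of 19775 genes, and 54 of the 60 lay above the limit on low signal and were tested, beside 12636 genes in all. By role they were 3 genes of complex II, 7 of complex III, cytochrome c, 3 mitochondrially encoded and 17 nuclear subunits of complex IV, 9 complex IV assembly factors, 17 genes of complex V, and 3 further symbols caught by the spelling, a pair of pseudogenes (ATP5MC2P1 and COX6A1P1) and the divergent transcript COX10-DT. SDHB, UQCRFS1 and UQCRH were not analysed here.

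The RNA came from HCT116, an established human colon cancer cell line. Cells that were not yet confluent were kept 24 h without serum and then held for 72 h (3 days) at 1% oxygen (hypoxia) or at 21% oxygen (normoxia), so that serum withdrawal was common to both groups. Each group has 2 samples, with exp A or exp B in their titles, and 1 Affymetrix array per sample. The titles do not state that each experiment was an independent culture, so the p-values cover the scatter of these 4 arrays alone, and that scatter may be technical.

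Respiratory complexes pass electrons from metabolites to oxygen. Complex II (succinate dehydrogenase) feeds electrons from succinate into ubiquinone, complex III passes them to the small carrier cytochrome c, and complex IV (cytochrome c oxidase) hands them to oxygen, while complex V (ATP synthase) uses the proton gradient built on the way to make ATP. Complexes III, IV and V combine subunits of mitochondrial DNA with many of nuclear DNA, and complex IV needs a long series of assembly factors that insert heme a and copper; complex II is wholly of nuclear DNA.

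Values are MAS5 signals, linear intensities of 1 probe set scaled to the same trimmed mean on every array. A difference is given on the log2(signal + 23.7) scale as hypoxia minus normoxia, with its standard error (SE), and understates the change of dim genes, and a fold is the ratio of group mean signals. A gene was called where limma's adjusted p, taken over all 12636 tested genes, lay under 0.05. Because of the scaling, every direction is relative to the other genes on the array, and in bulk RNA fewer cells that express a gene and less RNA per cell cannot be told apart. The low-oxygen genes ANKRD37, NDRG1, EGLN3 and VEGFA were called higher by 2.10 to 5.02, 4 of the 4 tested of that list. The colon epithelial markers EPCAM, KRT8, KRT18, KRT19 and CDH1 were all measured, with summed signals of 73787 and 87291 in normoxia against 115091 and 107610 in hypoxia. Of 5 markers of other cells, 2 passed the limit on low signal, and their 5 summed signals were 687 and 997 against 2337 and 2634, mostly COL1A1, a collagen of fibroblasts (545 and 595 against 1752 and 2162). The leukocyte marker PTPRC stood at 18.4, 112, 53.8 and 72.4 on the normoxia A, normoxia B, hypoxia A and hypoxia B arrays. The part of these marker shifts in the results below was not tested.

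Nuclear genes of complexes III and V made up most of the falls, and the rises were in mitochondrially encoded subunits, cytochrome c and COX7A2L. Of the 54 tested genes, 15 fell (27.8%), 4 rose (7.41%) and 35 were not called. Among all tested genes 22.8% were called lower, 15.3% were called higher and 38.0% were called in either direction. With the deposited scaling the share of falls was thus near the background and that of rises below it. The median difference of the 54 was -0.23 log2, against -0.03 for all tested genes. The complexes differed in their counts: 8 of 16 complex V genes, 3 of 7 complex III genes, 1 of 3 complex II genes, 2 of 14 nuclear complex IV subunits and 1 of 8 complex IV assembly factors fell. Their medians were -0.52, -0.49, -0.45, 0.12 and -0.28 in the same order. The mitochondrially encoded complex IV subunits had a median of 0.91, with 2 of 3 called higher. Over the 51 tested members of nuclear DNA, 15 fell and 2 rose, with a median of -0.29. For comparison, 34 tested genes had a symbol that begins like those of complex I structural genes. They include the noncoding NDUFB2-AS1 and NDUFV1-DT, neither called. Of the 34, 22 fell (64.7%), 1 rose (NDUFS4), and their median was -0.82. Genes of a complex are not replicates, so no test was made between complexes.

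The groups of 2 arrays did not overlap for 39 of the 54 genes, 28 with hypoxia below and 11 with hypoxia above, while 72.0% of all tested genes had no overlap. All 19 called members were among the 39. The A and the B arrays gave differences of opposite sign for 7 of the 54. Hypoxia B lay below hypoxia A for 36 of the 54 and normoxia B above normoxia A for 44. With 1 array left out, the median difference of the 54 ran from -0.37 (without normoxia A) to -0.13 (without normoxia B). The medians of all tested genes were -0.1 and 0.0 in the same order. Under quantile normalization 26 of the 54 were called lower, with all 15 among them, and 1 was called higher. Of all 12636 tested genes, 2661 were then called lower and 1863 higher. The medians were -0.51 for the 54 and -0.06 for all tested genes, so the distance between these medians depended on the scaling. That background takes in genes of any signal, whereas 36 of the 54 members had a mean signal of 5000 or more. For all tested genes in that range the median was 0.32 with the deposited scaling and -0.02 under quantile normalization.

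**Figure D1:**
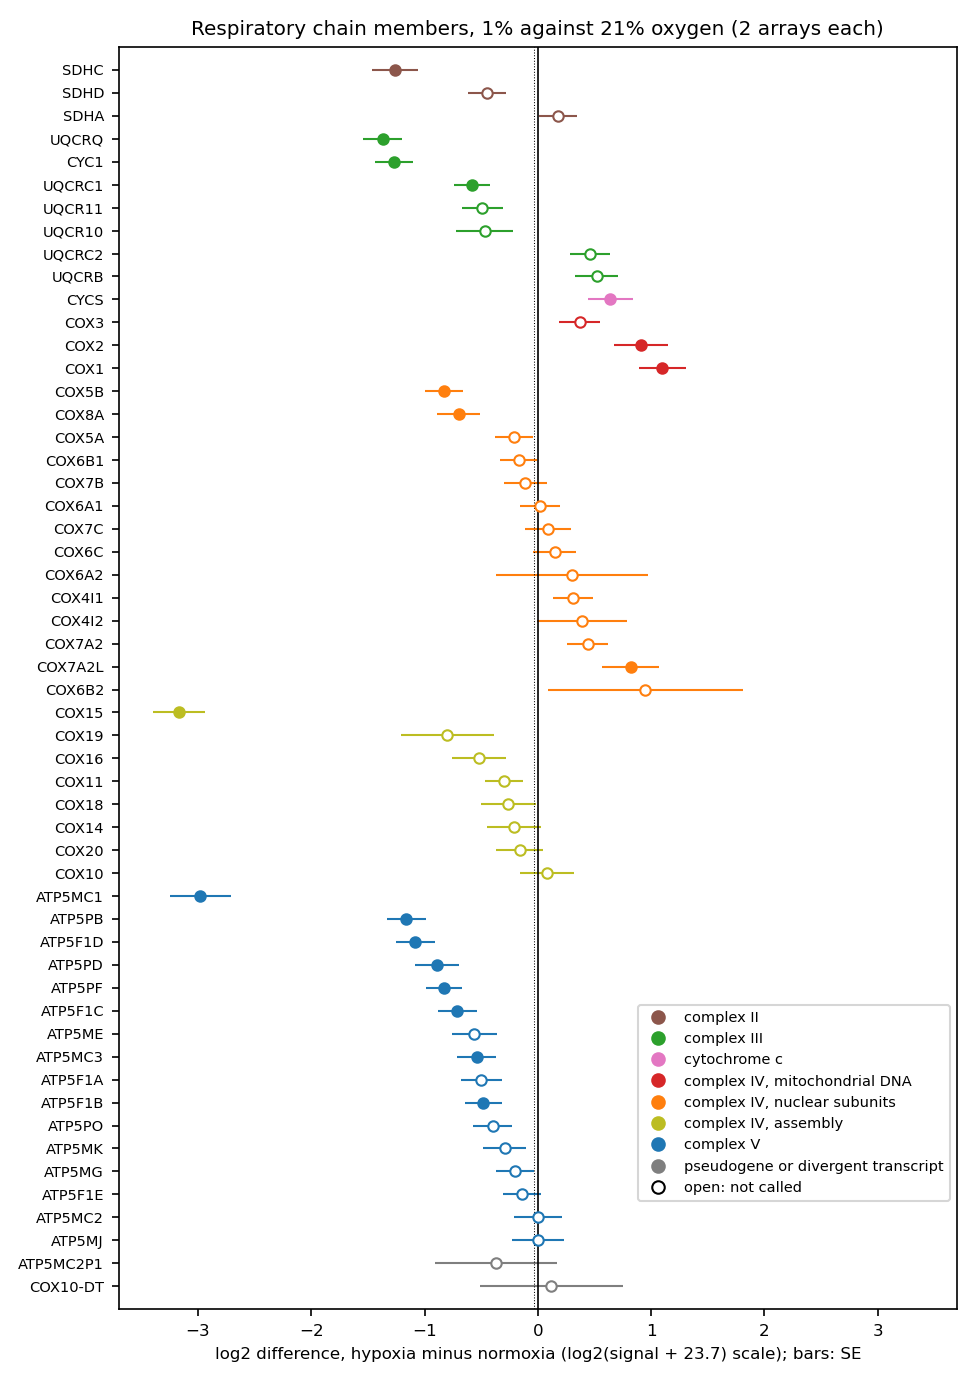
Difference between hypoxia and normoxia for the 54 tested genes, grouped by complex, as log2(signal + 23.7) with bars for the SE (2 arrays per group); filled points were called and the dotted line is the median of all tested genes (-0.03). COX15 at -3.17 and ATP5MC1 at -2.98 stand far to the left, most complex V points lie below 0, and COX1 at 1.10 is the furthest right of the called genes.

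Promoters of nuclear respiratory genes are known for sites of the factors NRF1, GABP (an ETS factor) and YY1, so their letters are shown for called genes of different complexes. RefSeq promoter windows (GRCh38.p14, 250 bases before to 50 after a start) were available for 44 of the 60 genes, in 54 windows. The ETS core CCGGAAG, searched on both strands, was in 21 of the 54 windows (38.9%) and in 10.3% of all 35116 windows. The NRF1 core GCATGCGC was in 12 (22.2%, against 3.05% of all windows), and the YY1 core AAGATGGC in 7 (13.0%, against 2.89%). The Sp1 core GGGCGG was in 57.4% (45.0% of all windows), and ACGTG, the core that hypoxia-inducible factors bind, was in 25.9% (21.4% of all windows). A match is a description of letters, and nothing on binding was measured. The 200 bases before the start are given 5′ to 3′ along the gene's strand, with cores on either strand in capitals: UQCRQ at chr5:132866442-132866641 (plus strand), COX5B at chr2:97645862-97646061 (plus), COX15 at chr10:99732128-99732327 (minus), ATP5F1C at chr10:7787977-7788176 (plus) and CYCS at chr7:25125261-25125460 (minus).
UQCRQ: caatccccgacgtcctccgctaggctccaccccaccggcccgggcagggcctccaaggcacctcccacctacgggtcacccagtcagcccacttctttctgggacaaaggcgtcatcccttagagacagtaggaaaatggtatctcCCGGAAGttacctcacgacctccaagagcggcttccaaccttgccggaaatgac
COX5B: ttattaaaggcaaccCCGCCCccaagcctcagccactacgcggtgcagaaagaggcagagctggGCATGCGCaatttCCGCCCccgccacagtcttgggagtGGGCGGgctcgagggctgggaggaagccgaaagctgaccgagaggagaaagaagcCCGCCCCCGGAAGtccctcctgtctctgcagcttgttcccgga
COX15: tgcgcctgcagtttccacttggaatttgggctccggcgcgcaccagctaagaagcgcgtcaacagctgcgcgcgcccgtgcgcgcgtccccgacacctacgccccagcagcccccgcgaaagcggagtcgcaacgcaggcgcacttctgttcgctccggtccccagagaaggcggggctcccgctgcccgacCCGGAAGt
ATP5F1C: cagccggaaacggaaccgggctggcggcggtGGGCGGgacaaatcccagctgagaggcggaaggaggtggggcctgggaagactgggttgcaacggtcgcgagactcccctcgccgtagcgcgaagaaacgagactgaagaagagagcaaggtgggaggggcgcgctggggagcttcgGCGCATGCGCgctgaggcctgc
CYCS: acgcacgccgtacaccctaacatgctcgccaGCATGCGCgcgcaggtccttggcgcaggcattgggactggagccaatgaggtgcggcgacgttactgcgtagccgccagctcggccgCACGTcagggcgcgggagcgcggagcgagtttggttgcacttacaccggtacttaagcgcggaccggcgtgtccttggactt
UQCRQ has its ETS core 54 bases before the start, and COX15 has it 8 bases before. COX5B holds an NRF1 core, 4 Sp1 cores, the last of which adjoins the ETS core without overlap, and another ETS core that begins 5 bases before the start and runs past the stretch shown. In ATP5F1C the capitals GCGCATGCGC are NRF1 cores on both strands that overlap each other, beside 1 Sp1 core. CYCS, which was called higher, has an NRF1 core 169 bases before its start and ACGTG on the other strand 82 bases before it. Of the 11 windows of called-lower members, 7 held the ETS core, 4 the YY1 core, 3 the NRF1 core and 2 ACGTG. These windows belong to 10 genes, and ATP5PF counts more than once for the ETS and YY1 cores. Only 3 windows belonged to called-higher members.

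In complex II the membrane anchor subunit SDHC fell and the other anchor and the flavoprotein did not pass the test. SDHC, which with SDHD holds heme b and the ubiquinone site, read 3984 and 3906 in normoxia A and B and 1951 and 1367 in hypoxia A and B. Both hypoxia signals were far below both normoxia signals, a 2.38-fold fall (-1.26 ± 0.20 SE, n = 2 per group, limma adjusted p = 0.00159). SDHD read 6228 and 6429 against 5101 and 4215, a difference of -0.45 ± 0.17 that was not called (limma adjusted p = 0.0651), although the groups did not overlap. Without hypoxia A it was called (-0.58, limma adjusted p = 0.00787). SDHA, the catalytic subunit that carries FAD, went the other way in its values, 2077 and 2070 against 2265 and 2428, and was not called (0.18 ± 0.17, limma adjusted p = 0.444). SDHC had further probe sets, and all lay below 0: those at -1.21 and -1.65 were called, while those at -0.67, -0.38 and -0.94 were not. In 1 alternative, probe sets with names ending in _x_at or _s_at, which may match more than 1 transcript, were left out. There the remaining best SDHC probe set gave -0.38 and no call (limma adjusted p = 0.668).

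Complex III split by subunit. The small subunit UQCRQ, the electron-carrying CYC1 and the core protein UQCRC1 fell, and UQCRC2 and UQCRB had higher hypoxia signals that were not called. UQCRQ, a supernumerary subunit next to cytochrome b, went from 8479 and 8938 to 3734 and 3007, a 2.58-fold fall (-1.37 ± 0.17 SE, n = 2 per group, limma adjusted p = 4.73e-04). CYC1, the cytochrome c1 that passes electrons on to cytochrome c, went from 9118 and 9522 to 4273 and 3455, a 2.41-fold fall (-1.27 ± 0.17, limma adjusted p = 6.55e-04). These genes had the largest falls of the complex, and neither call was lost in any alternative tried. UQCRC1 read 4800 and 4657 against 3293 and 3016 (-0.58 ± 0.16, limma adjusted p = 0.0196), and it was no longer called with normoxia A left out (-0.56, adjusted p = 0.214) or with normoxia B left out (-0.60, adjusted p = 0.169).

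The partner core protein UQCRC2 read 4763 and 5371 against 7854 and 6215, so that both hypoxia arrays were above both normoxia arrays (0.46, limma adjusted p = 0.0699). UQCRB, which lies at the quinone-binding side, read 13990 and 16431 against 24203 and 19520 (0.52, limma adjusted p = 0.0567). Its other probe sets differed from each other, 1 at 0.74 and called, and those at 0.57 and -0.53 not called. UQCR10 had 9667 and 10561 in normoxia and spread widely in hypoxia, 5454 and 9778, and was not called (-0.47, limma adjusted p = 0.179). UQCR11 read 8246 and 10497 against 6911 and 6339 (-0.49, limma adjusted p = 0.0575), while a dimmer probe set of it fell from 521 and 639 to 15.2 and 38.0 and was called. These hypoxia signals lie below the highest Bacillus control, a probe set made for a bacterial gene (305 and 226), against which the fall was at least 2.18-fold. The sample titles do not state whether Bacillus RNA was added, so these controls are not known to be blank.

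Cytochrome c, the mobile carrier between complexes III and IV and also a trigger of apoptosis when released, was the only member of its class. CYCS read 19542 and 23524 in normoxia and 37045 and 30282 in hypoxia. The groups did not overlap, and the rise of 1.56-fold was called (0.64 ± 0.20 SE, n = 2 per group, limma adjusted p = 0.0292). It was not called without hypoxia A (0.50, adjusted p = 0.161), and its value under quantile normalization was -0.13. Its other probe sets gave -0.33 and 0.32, neither called.

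The catalytic core of complex IV is encoded in mitochondrial DNA, and 2 of its 3 subunits were called higher. COX1 here is the mitochondrial subunit I, which holds heme a and the site where oxygen is reduced, and read 27782 and 36055 in normoxia against 70103 and 65612 in hypoxia. That was a 2.13-fold rise (1.10 ± 0.21 SE, n = 2 per group, limma adjusted p = 0.00317). COX2, the mitochondrial subunit II that takes electrons from cytochrome c, went from 27703 and 43398 to 61941 and 68581 (0.91 ± 0.24, limma adjusted p = 0.0169). Both hypoxia arrays of each gene lay above both normoxia arrays. The COX2 call was lost without hypoxia A (0.98, adjusted p = 0.0688) and without hypoxia B (0.84, adjusted p = 0.110). COX3, the third core subunit, read 7118 and 5654 against 8996 and 7523 and was not called (0.37 ± 0.18, limma adjusted p = 0.140). ATP6, the mitochondrially encoded proton channel subunit of complex V, which the symbols chosen here do not cover, read 23552 and 34238 against 57547 and 54195 (0.98 ± 0.22, limma adjusted p = 0.00824), and was not called without hypoxia A (0.93, adjusted p = 0.0531).

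The rises of COX1, COX2 and CYCS lay in a range of signal where most genes were called higher in hypoxia. Of the 160 tested genes with a mean signal of 20000 or more, 136 were called higher (85.0%), none was called lower, and the median difference was 0.94. The 3 members in that range had a median of 0.91. The 99th percentile of all signals was 12186 and 13472 in normoxia and 17232 and 16636 in hypoxia, whereas the 75th percentile was 460.0 and 450.0 against 414.0 and 407.0. Quantile normalization, which gives all arrays the same distribution, put the differences at 0.08 for COX1, -0.10 for COX2 and -0.01 for ATP6, none called. Scaling to the spiked hybridization controls turned all 4 called rises below 0 (COX1 -0.36, COX2 -0.55, COX7A2L -0.64, CYCS -0.81), with the median of all genes at -1.41, and scaling to the 75th percentile kept the 4 rises and 12 of the 15 falls. Of the 36 members with a mean signal of 5000 or more, 10 were called lower and 4 higher (median -0.20), while 20.5% of all 1149 tested genes in that range were called lower and 41.8% higher (median 0.32). Below 5000, 5 of 18 members were called lower and 0 higher (median -0.28), against 23.0% and 12.6% of 11487 genes (median -0.07).

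**Figure D2:**
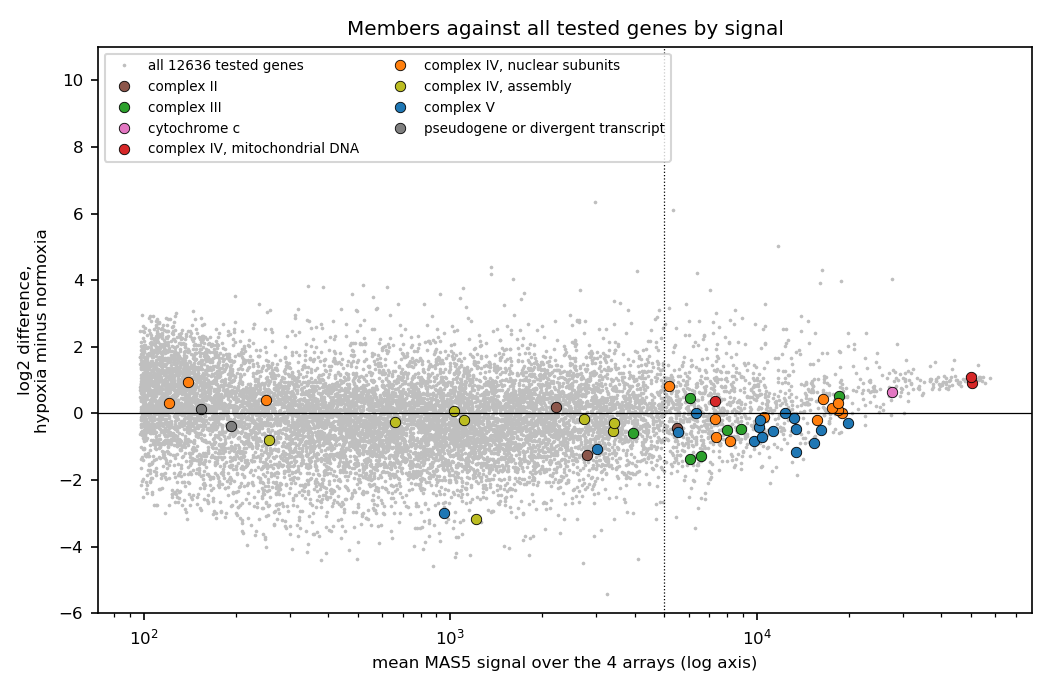
Difference between hypoxia and normoxia (log2) against the mean signal over the 4 arrays (log axis) for all 12636 tested genes in grey, with the tested members in colour and a dotted line at 5000. The cloud narrows and bends upward at high signal, where 136 of 160 genes above 20000 were called higher, and COX1, COX2 and CYCS lie within it, whereas COX15 and ATP5MC1 lie near its lower edge.

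Nuclear structural subunits of complex IV, which surround the core and tune it, were mostly not called: 2 of 14 fell, 1 rose, and 9 of the 14 values were above 0. COX5B, the zinc-binding subunit, went from 9546 and 11509 to 6267 and 5519, a 1.79-fold fall (-0.83 ± 0.17 SE, n = 2 per group, limma adjusted p = 0.00539). It was not called without normoxia B (-0.70, adjusted p = 0.0541); further probe sets of it at -1.12 and -0.85 were called and 1 at -0.09 was not. COX8A, the ubiquitous form of subunit VIII, read 8430 and 9726 against 6377 and 4830 (-0.70 ± 0.19, limma adjusted p = 0.0170), and was not called without normoxia B (-0.60, adjusted p = 0.121). COX7A2L, also known as SCAF1 and found in supercomplexes of complexes III and IV, went from 4301 and 3112 to 8194 and 5096 (0.82 ± 0.25, limma adjusted p = 0.0302). Its groups did not overlap but its arrays were widely spread, and the call was lost without normoxia B (0.58, adjusted p = 0.180) and without hypoxia A (0.48, adjusted p = 0.0578).

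Several complex IV subunits exist as paired forms, of which COX4I2 is known as a form raised at low oxygen in lung and other tissues. COX4I1, the main form, read 14733 and 18328 against 19485 and 21396 (0.31, limma adjusted p = 0.208), and COX4I2 was dim, 203 and 227 against 285 and 291 (0.39, limma adjusted p = 0.477). Neither was called, and the log2 ratio of COX4I2 to COX4I1 moved by 0.07 (0.04 on the A arrays and 0.10 on the B arrays). An exact two-sided permutation test over the 4 arrays gave p = 0.667 for it and cannot go below 0.333. COX6A1 read 16754 and 21029 against 19656 and 18520 (0.02), and its muscle form COX6A2 read 89.3 and 119 against 177 and 97.1 (0.30). COX6B1 read 7466 and 8029 against 7196 and 6540 (-0.17), and the testis form COX6B2 read 91.7 and 51.8 against 348 and 63.3, with hypoxia A alone high (0.95, limma adjusted p = 0.417). COX7A2 read 13009 and 14857 against 20479 and 17451 (0.44, limma adjusted p = 0.0786). None of these genes was called. Over 7 pairs of related forms the exact permutation p ran from 0.333 to 1.0 and the Benjamini-Hochberg adjusted value from 0.777 to 1.0, so that no pair could pass in this design. COX5A, COX7B, COX7C and COX6C were not called and lay between -0.21 and 0.15. COX7A1, COX7B2 and COX8C, forms of other tissues, were below the limit on low signal, with mean signals of 16.1, 75.4 and 60.5 where the limit was 97.4.

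Among the assembly factors of complex IV, COX15 was the only one called. COX15, which with COX10 makes the heme a that only complex IV uses, read 2299 and 2122 in normoxia and 224 on both hypoxia arrays. It was called lower (-3.17 ± 0.23 SE, n = 2 per group, limma adjusted p = 5.6e-05), and its further probe sets, at -2.27 and -2.16, were called too. The hypoxia signals are near the level of control probe sets made for Bacillus genes. The highest Bacillus control read 305 and 226 on the hypoxia arrays and 45.7 and 121 on the normoxia arrays, and COX15 lay below it on both hypoxia arrays. The size of the fall on this probe set is therefore given as a bound. With the control's signal in place of the lower hypoxia signal on each array, its signal was at least 8.33-fold lower. The bound does not hold for the further probe sets, which fell less. They went from 1724 and 1164 to 398 and 187, and from 1610 and 1071 to 299 and 255. COX10, the enzyme of the step before it, was not called (0.08). The other 6 tested factors were not called and all lay below 0: COX19 at -0.80, COX16 at -0.52, COX11 at -0.30, COX18 at -0.26, COX14 at -0.21 and COX20 at -0.16. The copper chaperone COX17 had a mean signal of 25.6 and was not tested.

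Complex V had the most falls among complexes II to V, 8 of 16, and none of its genes was called higher. By part, 3 of 5 subunits of the catalytic F1 head, 2 of 3 genes of the rotating c ring, 3 of 4 of the peripheral stalk and 0 of 4 of the other membrane subunits fell, with medians of -0.50, -0.54, -0.86 and -0.25. Under quantile normalization 14 of the 16 were called lower. With the _x_at and _s_at probe sets left out 3 were, but the called ATP5F1D, ATP5MC1 and ATP5PF had only such probe sets and were not tested there. Without normoxia B, ATP5F1B, ATP5F1C and ATP5MC3 were at -0.42, -0.57 and -0.42 in place of -0.48, -0.71 and -0.54.

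The c ring is made of 1 protein that 3 genes encode with different leader peptides. ATP5MC1, known as the form most regulated by cell state, went from 1586 and 1844 to 225 and 171 and was called lower (-2.98 ± 0.27 SE, n = 2 per group, limma adjusted p = 1.18e-04). Its hypoxia signals also lay below the highest Bacillus control, which makes it at least 6.46-fold lower. ATP5MC2 read 6133 and 6455 against 7651 and 5147, so the groups overlapped (-0.00, limma adjusted p = 0.991). ATP5MC3 read 12300 and 14514 against 9211 and 9123 (-0.54 ± 0.17, limma adjusted p = 0.0310), and was not called without normoxia B (-0.42, adjusted p = 0.184); its further probe sets were called lower, 1 at -0.58 and 1 that fell below the controls in hypoxia. The ratio of ATP5MC1 to ATP5MC2 was lower on both hypoxia arrays, with an exact permutation p of 0.333, the smallest that 4 arrays allow, and its size is not given because ATP5MC1 in hypoxia lay below the control.

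In the peripheral stalk, which holds the head still against the turning ring, ATP5PB read 16984 and 20107 against 8636 and 7871, a 2.25-fold fall (-1.16 ± 0.17 SE, n = 2 per group, limma adjusted p = 0.001). ATP5PD read 17234 and 22804 against 11034 and 10299 (-0.89 ± 0.19, limma adjusted p = 0.00569), and ATP5PF read 12305 and 12728 against 6963 and 7132 (-0.83 ± 0.16, limma adjusted p = 0.00335). Each hypoxia array of these 3 genes was below each normoxia array. ATP5PO, the subunit that gives oligomycin sensitivity, was not called (-0.40, limma adjusted p = 0.0933). A dimmer ATP5PD probe set was at 1.19 and not called, and a dimmer ATP5PB one was at -0.88 and not called.

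Of the F1 head, ATP5F1D, the delta subunit of the central stalk, went from 4021 and 4180 to 2054 and 1811, a 2.12-fold fall (-1.08 ± 0.17 SE, n = 2 per group, limma adjusted p = 0.00132). ATP5F1C, the gamma shaft, read 11650 and 14244 against 7893 and 7828 (-0.71 ± 0.17, limma adjusted p = 0.0106), and was not called without normoxia B (-0.57, adjusted p = 0.0851). ATP5F1C is the gene whose probe sets were called in opposite directions: those at -0.71 and -0.73 were called lower, and a dim one at 1.40 was called higher. ATP5F1B, the catalytic beta subunit, read 14954 and 16377 against 10866 and 11504 (-0.48 ± 0.16, limma adjusted p = 0.0442). That call is at the edge of the threshold and was lost without any 1 of the arrays (from -0.55 to -0.42). The alpha subunit ATP5F1A was not called (-0.50, limma adjusted p = 0.0569), nor was the epsilon subunit ATP5F1E (-0.14). The membrane subunits ATP5ME, ATP5MK and ATP5MG were not called either, at -0.56, -0.29 and -0.20 (a further ATP5MG probe set at -1.20 was called), and ATP5MJ read 11946 and 12394 against 15378 and 9644 (0.00). ATP5MF, with a mean signal of 12.1, was not tested. The pseudogene COX6A1P1 had a mean of 44.6 and was not tested, and COX6A2 with 121 was the tested member nearest above the limit.

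**Figure D3:**
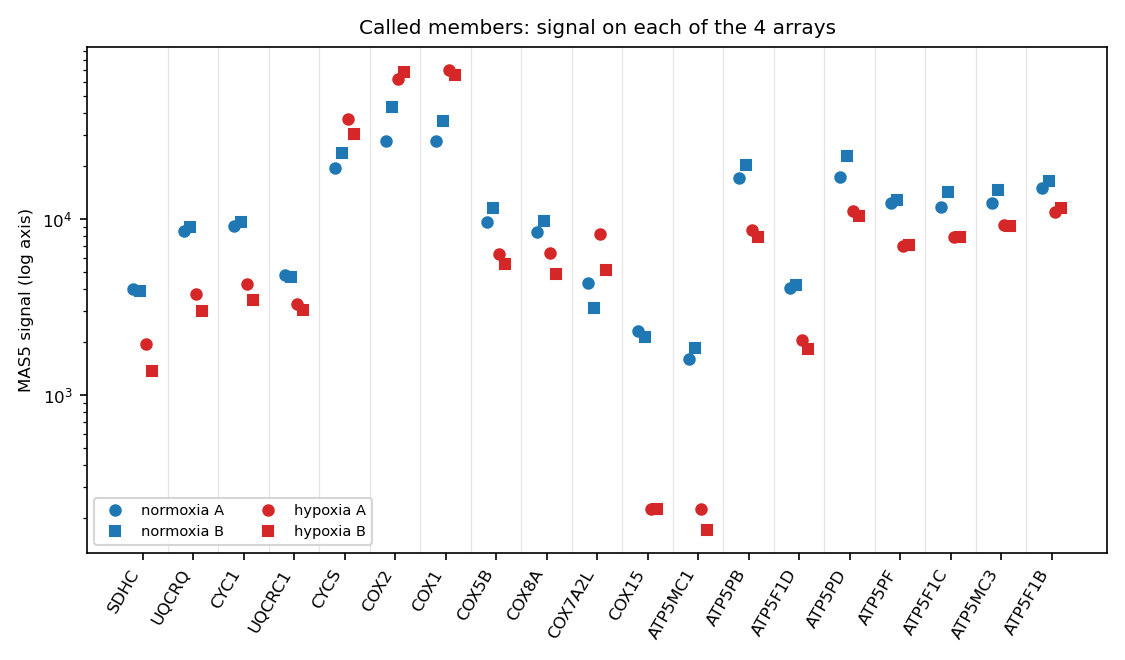
Signal (MAS5, log axis) of the 19 called genes on each of the 4 arrays, normoxia in blue and hypoxia in red, circles for A and squares for B. The groups do not overlap for any of the 19, and COX15 and ATP5MC1 drop to 225 or below in hypoxia.

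A second look at all probe sets of the members showed how far 1 gene's probe sets agree. The 60 genes had 117 probe sets, of which 99 passed the limit. A fit of all 23176 probe sets that did so called 26 of the 99 lower and 7 higher. The shares called over all 23176 were not counted, so these counts cannot be set against a background. Of the 26 genes with over 1 probe set past the limit, 8 had probe sets of both signs: ATP5F1C, ATP5F1E, ATP5PD, ATP5PO, COX20, COX7C, CYCS and UQCRB. With the mean of all probe sets, ATP5F1B (-0.48), ATP5F1C (-0.19), ATP5PD (0.15), CYCS (0.21) and COX7A2L (0.82) were no longer called. For COX15, SDHC and COX5B every probe set that passed lay below 0.

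**Figure D4:**
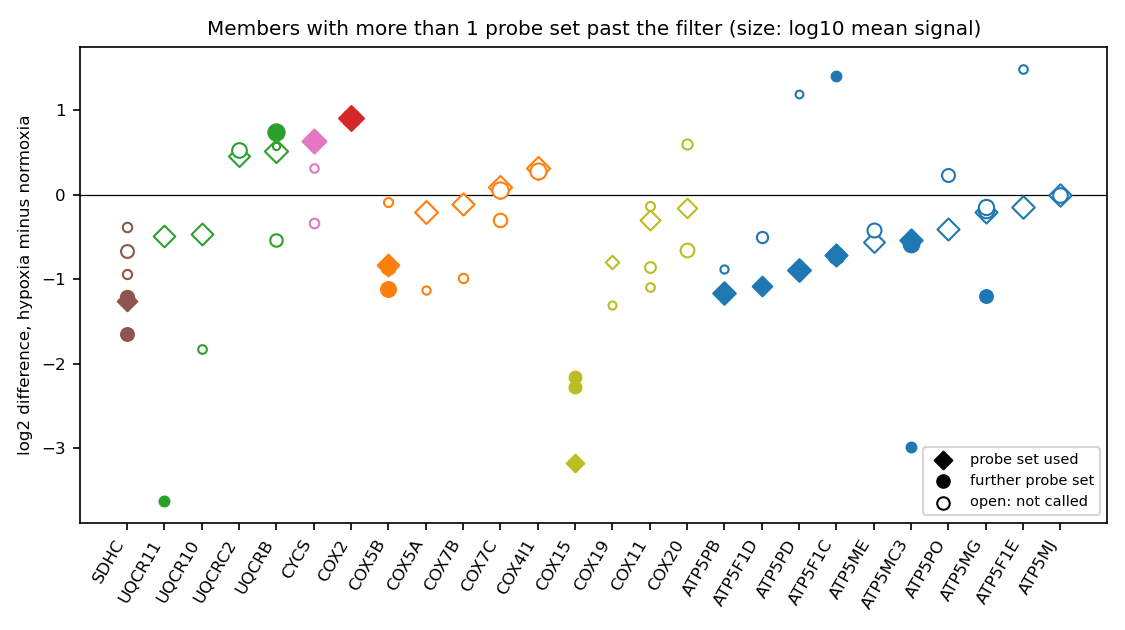
Differences (log2, hypoxia minus normoxia) of every probe set past the limit on low signal, for members with more than 1, with called probe sets filled. Those of COX15 lie together at -3.17 to -2.16, whereas ATP5F1C has 1 called probe set at 1.40 opposite those at -0.71 and -0.73.

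The genes around the complexes include assembly factors, regulators and other known partners. Assembly factors and translation activators of complex IV other than the COX-named ones fell in 13 of 19 cases and rose in 2 (median -1.15), beside 22.8% lower and 15.3% higher among all tested genes, the background for each list that follows. TMEM177, which stabilizes a COX2 chaperone, went from 1023 and 902 to 237 and 78.2, below the highest Bacillus control in hypoxia. On the probe set used, TMEM177 was at least 3.63-fold lower. SCO1, a copper chaperone for COX2, went from 2194 and 2101 to 320 and 370 (-2.56), and SURF1, whose loss causes Leigh syndrome, from 4610 and 4580 to 1149 and 838 (-2.20). As the mean of its probe sets SURF1 was at -0.57 and not called (adjusted p = 0.306). The genes called higher were CMC2 (1.07) and HIGD2A (0.51), the latter not called without normoxia A (0.51, adjusted p = 0.167) or normoxia B (0.50, adjusted p = 0.161). Both were below 0 when scaled to the hybridization controls.

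For complex III, with the same background, 2 of 5 tested assembly genes fell. LYRM7, which guards the Rieske protein before its insertion, went from 1948 and 1813 to 186 and 174 (limma adjusted p = 6.92e-05), below the highest Bacillus control in hypoxia. On the probe set used, LYRM7 was at least 7.08-fold lower. Of complex V assembly and inhibitor genes 3 of 5 fell: ATPAF1 (-1.08), the inhibitor ATP5IF1 (-1.08), which blocks ATP hydrolysis, and TMEM70 (-0.90). ATPAF1 was not called without normoxia A (-1.17, adjusted p = 0.129) or normoxia B (-0.98, adjusted p = 0.217), and moved to -1.57 without hypoxia A and -0.58 without hypoxia B. TMEM70 was not called without normoxia B (-0.80, adjusted p = 0.0564). Of complex II assembly genes 1 of 4 fell, SDHAF2, which attaches FAD to SDHA (-0.72), and it was not called without normoxia A (-0.76, adjusted p = 0.220) or normoxia B (-0.67, adjusted p = 0.278). CHCHD4, the import receptor of the intermembrane space, was the 1 of 3 heme and cytochrome c handling genes that fell (-2.42).

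Of 12 tested regulators of respiratory genes, 3 fell and 2 rose, shares close to the 22.8% and 15.3% of all tested genes, with a median of -0.10. The helicase of mitochondrial DNA, TWNK, went from 1744 and 2065 to 291 and 283 (-2.63), the packaging factor TFAM from 2529 and 2305 to 1110 and 541 (-1.61), and the transcription factor TFB2M from 4808 and 4446 to 1828 and 2101 (-1.23). TWNK on hypoxia A, and CHCHD4 there too, lay below the highest Bacillus control of that array (305). TFB2M as the mean of its probe sets was at 0.06 and not called (adjusted p = 0.932). The GABP genes GABPA (-0.02) and GABPB1 (0.02) were not called. NRF1 and YY1, other factors whose cores were searched above, were called higher. NRF1 went from 470 and 421 to 787 and 848 (0.84) and YY1 from 9635 and 9734 to 15601 and 16153 (0.71). NRF1 was not called without normoxia A (0.92, adjusted p = 0.162) or normoxia B (0.77, adjusted p = 0.243), and both were below 0 when scaled to the hybridization controls (-0.56 and -0.74). PPARGC1A, a coactivator of these factors, had a mean signal of 20.2 and was not tested. Of 5 tested respiratory genes tied to low oxygen, HIGD1A (-1.13), a small protein that binds complex IV, and the iron-sulfur scaffold ISCU (-0.88) fell and none rose.

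**Figure D5:**
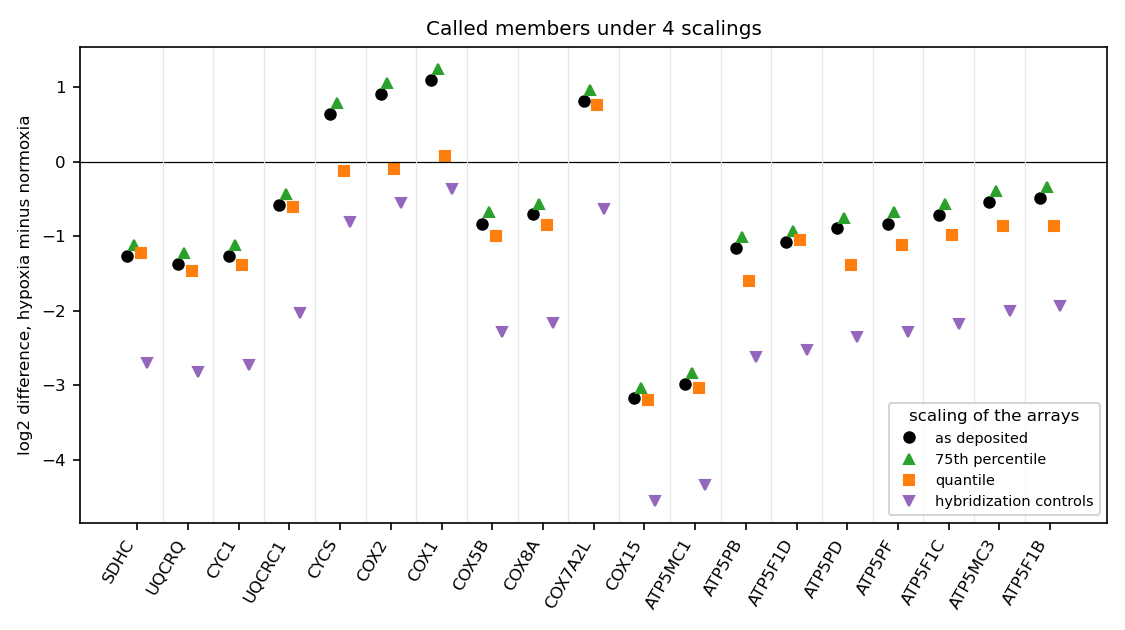
Difference (log2, hypoxia minus normoxia) of the 19 called genes under the deposited scaling, quantile normalization, the 75th percentile and the hybridization controls. The 15 falls stay below 0 under all 4, whereas COX2 and CYCS are below 0 under quantile normalization and all 4 rises are below 0 under the hybridization controls. The hybridization controls move genes down together (median of all genes -1.41), so the falls had to stay below 0 there.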

How the data were processed

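RNA of 4 HCT116 samples was measured on 1 array each. The intensities were deposited by the authors, 1 linear value per probe set. Per the submitters' processing notes the tool was MAS5, with no version named there. With 2% of values trimmed at each end, every one of the 4 arrays had a mean of 500.1. No 2 arrays shared more than 1 identical value.

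Probe sets were named from the platform annotation: of 54675, 41091 had 1 gene, 1801 several and 11721 none, and the last 2 kinds were not used. A gene was represented by its probe set of highest mean over the 4 arrays, and entered the test where this mean reached the median of all probe set means (97.4). Values were log2(signal + 23.7), the 25th percentile of all signals. limma 3.58.1 (R 4.3.3) with an intensity trend compared hypoxia with normoxia, two-sided, with Benjamini-Hochberg adjustment, after the code was tested on simulated data. Paired forms were compared by exact permutation (scipy 1.17.1) and figures drawn with matplotlib 3.10.9.

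Genes named with all 4 signals were the called genes, genes opposite to most of their complex and paired forms, and up to 4 called genes of each other list; SDHD, UQCR10, UQCR11, COX3, ATP5MJ, CMC2, HIGD2A, YY1, PPARGC1A, the count at signals of 20000 or more, the bounds against Bacillus controls and the genes named for further probe sets were added after their values were seen. The members and lists were chosen with earlier results of these data known. The fit of every probe set was added after the values were seen. The number of arrays limits the precision.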

Additional observations from a re-analysis of the deposited data

How the results depend on the processing

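The 15 falls stayed called under quantile normalization and the hybridization controls, and 12 of 15 did under the 75th percentile (lost: ATP5F1B, ATP5MC3, UQCRC1). The hybridization controls moved genes down together, with the median of all genes at -1.41. A fall therefore had to stay below 0 there, and that setting is no check on the falls. Without the _x_at and _s_at probe sets 41 members were tested in place of 54. For short these are called cross-hybridizing here, although a match to more than 1 transcript need not be to another gene. The called ATP5F1D, ATP5MC1, ATP5PF, COX8A and COX1 had no probe set left there, so the lower counts in that setting include genes not tested. All genes called numbered 4803, 3141 without an intensity trend, 5487 with the replicate block, and 2575 to 6257 with 1 array left out. Members called lower (15) became 26 under quantile normalization, 39 under hybridization controls, 8 without cross-hybridizing probe sets, 8 without the trend, and 9 to 18 with 1 array left out. Members called higher (4) became 1, 0, 4 and 1 in the same order, 7 under the 75th percentile, 2 without the limit on low signal, and 1 to 7 with 1 array left out. Complex II falls (1) became 2 under the block, quantile and hybridization settings, 0 without cross-hybridizing probe sets and 1 to 2 with 1 array left out. Complex III falls (3) became 5 under the block, hybridization controls and the mean of all probe sets, and 2 to 4 with 1 array left out. Nuclear complex IV subunit falls (2) became 5 under quantile, 9 under hybridization controls, 0 without cross-hybridizing probe sets, 0 without the trend, and 0 to 2 with 1 array left out. Assembly factor falls (1) became 2 under the block, 7 under hybridization controls, and 1 to 2. Complex V falls (8) became 14 under quantile, 16 under hybridization controls, 5 with the mean of all probe sets, 3 without cross-hybridizing probe sets, 4 without the trend, and 5 to 8. Among named genes called in either setting, signs turned under the hybridization controls for COX1 (-0.36), COX2 (-0.55), COX7A2L (-0.64), CYCS (-0.81), COX4I1 (-1.14), COX6A1 (-1.43), CMC2 (-0.38), HIGD2A (-0.95), NRF1 (-0.56), YY1 (-0.74) and ATP6 (-0.48), and also for the uncalled SDHA, COX3, COX7A2, UQCRC2, COX4I2, UQCRB, COX6A2 and COX6B2 (-1.27 to -0.25). Under quantile normalization they turned for COX2 (-0.10), CYCS (-0.13), COX6A1 (-0.56) and ATP6 (-0.01), and for the uncalled COX4I1 (-0.19), COX6A2 (-0.09) and COX7A2 (-0.01). With other probe sets they turned for ATP5F1C (1.40), ATP5PD (0.15 as the mean, 1.19 without cross-hybridizing probe sets), CYCS (-0.33) and TFB2M (0.06 as the mean), and for the uncalled UQCRB (-0.53), ATP5F1A (0.46 as the mean) and SDHD (0.16 as the mean). Without hypoxia A the uncalled COX6A1 (-0.02), COX6A2 (-0.07) and COX6B2 (-0.10) turned, and without normoxia A COX6A1 (-0.14). The turns under the hybridization controls are those of differences smaller than the common downward shift in that setting. The causes of the other turns were not tested. Of all calls, 40.1% were higher with the deposited scaling, 49.7% under the 75th percentile (median of all genes 0.11) and 0.934% under the hybridization controls (median -1.41).

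The letters A and B were used as a replicate block only here: deviations of arrays with the same letter correlated at 0.0875 over 2 pairs, so the letters were not taken to pair the samples. The block kept 14 of the 15 falls and the 4 rises. Signals near the controls, as for COX15, ATP5MC1, LYRM7 and TMEM177 in hypoxia, limit how far a fold can be measured.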
